A study of Mus musculus with 40 samples.

Results

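Malat1, Neat1, Meg3, Rian, Mirg, Miat, Snhg11 and Gm26917 are 8 of the 40213 gene symbols in the count files, and they were taken by name as long noncoding RNAs known from the cell nucleus. They were followed through all 40 poly(A)-selected mRNA-seq libraries of a mouse study of MPTP, a toxin of dopamine neurons used to model Parkinson's disease. The study asked whether SU-Eohyeol pharmacopuncture (SUEHP), a herbal preparation injected at an acupoint, changed the response to MPTP, and whether blocking CB1 or PPARγ changed the effect of SUEHP. Midbrain and spinal cord were each sampled in 5 groups of 4 libraries, so that each tissue had 20 libraries.

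All animals were male C57BL/6N mice aged 8 weeks. The Con group received saline in place of MPTP and saline at the acupoint GB34. The MPTP-Veh group received 4 intraperitoneal injections of MPTP at 20 mg/kg, 2 h apart, and saline at GB34. The MPTP-SU group received the same MPTP course, and SUEHP at GB34 on both sides from 1 week later, in 4 injections. The MPTP-SU+S group was treated like MPTP-SU and also received a CB1 antagonist at 3 mg/kg, which the labels spell SR141714A and the methods SR141716A. The legends of the study name the acupoint GB35 for this group and GB34 for the other groups. The MPTP-SU+T group was treated like MPTP-SU and also received the PPARγ inhibitor T0070907 at 5 mg/kg. The labels do not say whether the replicates came from separate animals, or whether a midbrain and a spinal cord library came from one animal. The p-values therefore measure the spread between these libraries, part of which may be technical.

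Malat1 is a very abundant RNA of nuclear speckles, the bodies that hold splicing factors, and Neat1 is the RNA scaffold on which paraspeckles assemble. Meg3, Rian and Mirg are transcribed from the maternal chromosome in the imprinted Dlk1-Dio3 region, where Rian hosts box C/D small nucleolar RNAs and Mirg hosts a cluster of microRNAs. Miat, also called Gomafu, is a nuclear RNA of neurons and other neural cells, and Snhg11 is a small nucleolar RNA host gene with high levels in neurons. Gm26917 is a predicted gene whose transcript overlaps sequence resembling ribosomal RNA. GENCODE M21 places Malat1 and Neat1 on chromosome 19, Meg3, Rian and Mirg on chromosome 12, Miat on chromosome 5, Snhg11 on chromosome 2 and Gm26917 on chromosome 17. It types 6 of the 8 as lincRNA, Rian as a processed transcript and Snhg11 as protein coding. Where in the cell the RNAs lay was not measured.

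The libraries were selected for poly(A), so the longest run of A inside each transcript is shown first, in capitals, for Malat1, Rian and Gm26917 as examples of longer and shorter runs. Each stretch was read 5′ to 3′ from the longest GENCODE M21 transcript of the gene.
Malat1: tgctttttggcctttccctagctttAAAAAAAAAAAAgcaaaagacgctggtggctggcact
Rian: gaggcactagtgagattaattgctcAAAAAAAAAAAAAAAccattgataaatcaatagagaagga
Gm26917: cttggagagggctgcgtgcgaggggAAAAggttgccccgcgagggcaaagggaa

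The run was 12 bases in Malat1, starting at base 6674 of 6983, where the RNA carries a genome-encoded A-rich tract in place of a poly(A) tail. It was 15 bases in Rian (8089 bases long), 8 in Snhg11 (5864 bases) and 7 in Neat1 (20771 bases). It was 5 bases in Mirg (3822 bases), 4 in Miat (9163 bases) and 4 in Gm26917 (3329 bases). The GC content was 35.8% in Rian, 42.5% in Malat1, 44.8% in Snhg11, 47.3% in Neat1, 49.2% in Meg3, 51.9% in Mirg and 55.1% in Miat. In Gm26917 it was 69.1%, higher than in 99.9% of the midbrain genes tested that had a transcript sequence.

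The promoter windows of Meg3, Mirg and Miat are shown because these RNAs differed together in the midbrain, and that of Rian because it lies in the same imprinted region and did not. Each holds 250 bases before and 50 after the annotated start of the gene, from RefSeq on GRCm38.p6. Whether each start has an active promoter of its own was not tested. Capitals mark matches on either strand to the cAMP response element TGACGTCA, the E-box CACGTG, the CCAAT box, the GC box GGGCGG or the TATA box TATAAA. For Meg3, the first of its 2 RefSeq starts is shown.
Meg3, chr12:109540746-109541045, plus strand: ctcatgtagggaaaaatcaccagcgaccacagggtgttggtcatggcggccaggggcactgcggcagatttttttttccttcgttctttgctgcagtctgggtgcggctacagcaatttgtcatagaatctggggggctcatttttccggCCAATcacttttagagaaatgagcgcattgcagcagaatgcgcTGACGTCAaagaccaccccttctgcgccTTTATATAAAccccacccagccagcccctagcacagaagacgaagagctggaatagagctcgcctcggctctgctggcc
Mirg, chr12:109734731-109735030, plus strand: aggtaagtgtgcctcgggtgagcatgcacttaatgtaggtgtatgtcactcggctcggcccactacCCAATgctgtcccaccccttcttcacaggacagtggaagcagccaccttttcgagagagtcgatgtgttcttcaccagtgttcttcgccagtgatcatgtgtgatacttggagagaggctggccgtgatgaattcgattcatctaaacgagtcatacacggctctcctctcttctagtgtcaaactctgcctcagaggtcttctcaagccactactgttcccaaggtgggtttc
Miat, chr5:112228899-112229198, minus strand: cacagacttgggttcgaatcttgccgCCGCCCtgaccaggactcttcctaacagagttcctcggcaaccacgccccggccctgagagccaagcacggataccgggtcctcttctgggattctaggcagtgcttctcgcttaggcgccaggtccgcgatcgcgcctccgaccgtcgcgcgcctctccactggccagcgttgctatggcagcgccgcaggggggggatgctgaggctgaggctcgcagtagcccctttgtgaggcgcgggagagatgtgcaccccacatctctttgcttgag
Rian, chr12:109603695-109603994, plus strand: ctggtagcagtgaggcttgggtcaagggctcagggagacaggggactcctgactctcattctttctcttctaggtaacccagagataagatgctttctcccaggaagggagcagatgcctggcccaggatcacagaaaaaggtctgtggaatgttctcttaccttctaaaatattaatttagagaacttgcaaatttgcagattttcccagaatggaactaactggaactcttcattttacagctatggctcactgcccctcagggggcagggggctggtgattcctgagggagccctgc

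No motif was shared by the windows of Meg3, Mirg and Miat. The Meg3 window held 1 match to TGACGTCA, which 1.79% of the 32817 RefSeq promoter windows held, and 2 overlapping matches to TATAAA, held by 13.6%. CCAAT was matched once in Meg3 and once in Mirg and was held by 37.4% of all windows, and GGGCGG was matched once in Miat and held by 35.6%. CACGTG, held by 7.15%, was not in these letters. The windows contained 25 CpG dinucleotides in Miat, 13 in Meg3, 10 in Mirg and 0 in Rian. RefSeq windows were matched for 6 of the 8 members, and those of Neat1 and Gm26917 were not used.

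Total counts per library were 11958200 to 16639823 in the midbrain and 14642808 to 16615378 in the spinal cord. One midbrain library, MPTP-Veh replicate 4, stood apart. Its Spearman correlation with the median of the other midbrain libraries was 0.888, against at least 0.987 for each of the others, and 1.35% of its counts were mitochondrial, against 9.92% to 17.5%. Its summed level of 10 oligodendrocyte markers was 36044 CPM (counts scaled to a library of 1000000), against 10446 to 15078 CPM in the other 19 midbrain libraries, and that of 4 haemoglobin genes was 2519 CPM, against 211 to 398 CPM. The summed level of 10 neuron markers was 11622 CPM in it, against 6495 to 8218 CPM. Calls of members that rest on it are given with and without it. Many values of other genes, and the correlations between genes, are given only with it and may rest on it. The 10 Hox genes that mark the spinal cord summed to 0 to 22 counts per midbrain library (median 2), below the filter on low counts, and to 562 to 661 CPM in the spinal cord.

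All 8 members were detected in all 40 libraries and passed the filter on low counts in both tissues. Per kilobase of the longest transcript, Gm26917 had the highest median level in the midbrain, at 6482 CPM per kb. It was followed by Snhg11 at 357, Malat1 at 283, Meg3 at 198, Rian at 70.01, Miat at 14.3, Neat1 at 7.01 and Mirg at 4.96 CPM per kb. In the spinal cord Gm26917 was at 2804 CPM per kb, and Malat1, at 427, was above Snhg11, at 319. There Meg3 was at 203, Rian at 53.0, Miat at 21.97, Neat1 at 11.6 and Mirg at 4.30 CPM per kb.

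Gm26917 varied far more between libraries than the other members. It took between 0.563% and 14.3% of the counts of a midbrain library, with a median of 2.11%, a 25.5-fold range. In the spinal cord it took 0.647% to 10.99%, with a median of 0.949%. The other 7 members together took 0.660% to 1.31% of the counts in the midbrain and 0.813% to 1.02% in the spinal cord. Counting error was small beside this spread, since the lowest Gm26917 share, 0.563% in midbrain Con replicate 2, had a 95% Wilson interval of 0.559% to 0.566%. Even for Mirg, the member with the fewest counts, 203 counts in spinal cord Con replicate 2 made a share of 0.00139% with an interval of 0.00121% to 0.00159%. These intervals cover counting error only.

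**Figure D1:**
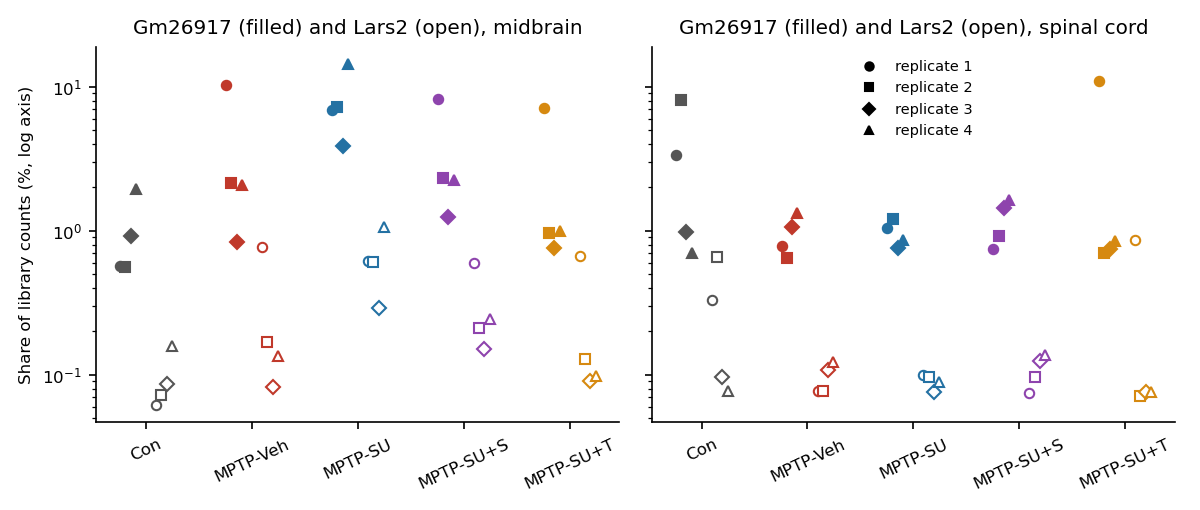
Share of library counts (percent, log axis) taken by Gm26917 (filled) and Lars2 (open) in each library, by group (x axis) and tissue, with 1 point per library and a marker shape per replicate number. The Gm26917 shares run from 0.563% to 14.3% for midbrain and 0.647% to 10.99% for spinal cord, single libraries lie far above the rest of their group, and Lars2 is high in the same libraries.

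In midbrain MPTP-Veh, MPTP-SU+S and MPTP-SU+T the mean Gm26917 level was set largely by a single library, while in MPTP-SU all libraries were high. In Con it was 5426, 5469, 8867 and 18596.5 CPM in replicates 1 to 4. In MPTP-Veh it was 108203, 20645, 8072 and 23477 CPM, and in MPTP-SU it was 72759, 78180.5, 37107 and 155072 CPM. All 4 MPTP-SU libraries were thus above all 4 Con libraries, while MPTP-Veh overlapped both groups. In MPTP-SU+S the level was 81850.0, 22514, 12272 and 22782 CPM, and in MPTP-SU+T 77672.5, 9408, 7038 and 9405 CPM. Replicate 1 was the highest library in MPTP-Veh, MPTP-SU+S and MPTP-SU+T, by more than 3-fold in each.

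In the spinal cord the high Gm26917 libraries were fewer. The level was 33566, 88751, 9383 and 6747 CPM in Con, and 120604, 6681, 7097 and 8189.8 CPM in MPTP-SU+T. The 12 libraries of MPTP-Veh, MPTP-SU and MPTP-SU+S ranged from 6419.7 to 16882 CPM. High and low libraries thus stood within Con and within MPTP-SU+T.

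Across the 20 midbrain libraries, the genes whose log2 CPM followed Gm26917 most closely among 11893 were Gm46178, Lars2 and Rpph1, with Spearman's rho of 0.986, 0.974 and 0.971. In the spinal cord they were Lars2, Rn7sk and Rpph1, with rho of 0.935, 0.935 and 0.928 among 11899. Lars2 encodes the mitochondrial leucyl-tRNA synthetase, Rpph1 the RNA of RNase P, and Rn7sk the 7SK RNA. The ratio of Gm26917 to Lars2 within a library stayed between 7.43 and 15.5 in the midbrain and between 8.45 and 12.8 in the spinal cord. These values share libraries and depth and are a description.

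**Figure D2:**
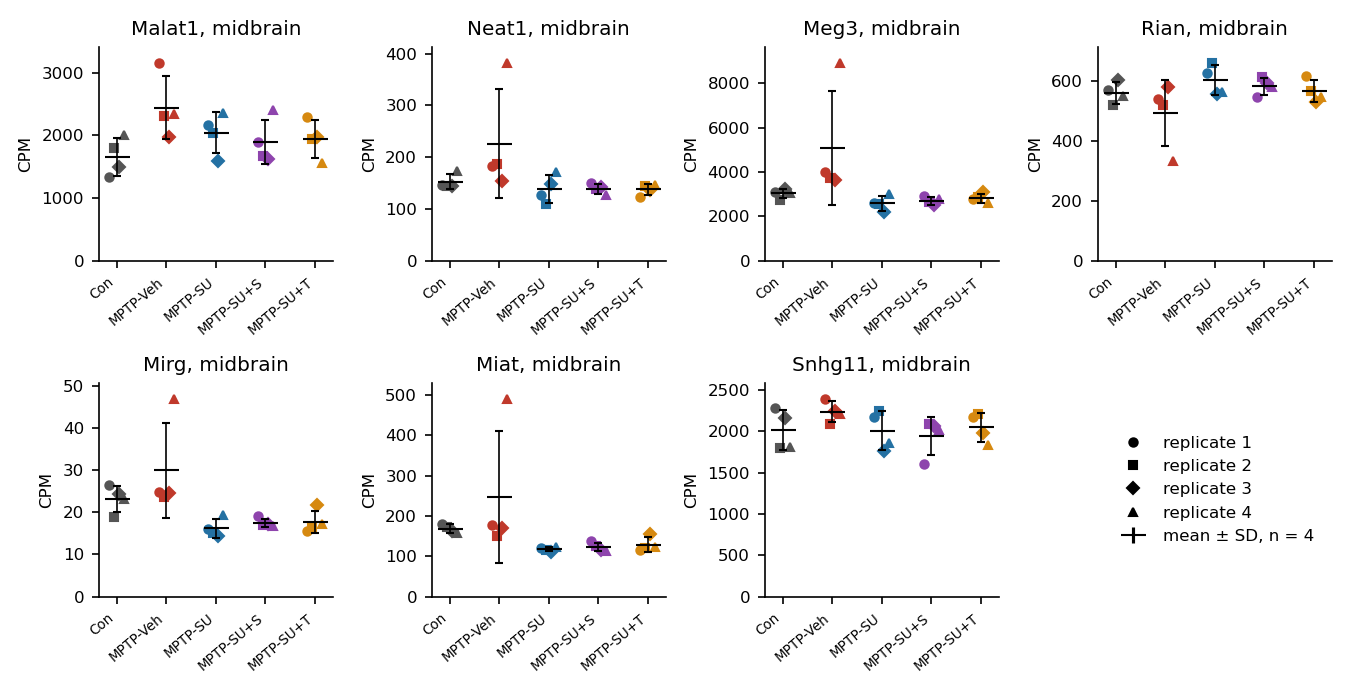
Level of the 7 members other than Gm26917 in the 20 midbrain libraries (CPM, linear axis from 0), by group, with 1 point per library, a marker shape per replicate number and bars for the mean ± SD (n = 4). Meg3, Mirg and Miat lie lower in all 4 MPTP-SU libraries than in all 4 MPTP-Veh libraries, and MPTP-Veh replicate 4 (red triangle) is the highest library for Meg3, Mirg, Miat and Neat1.

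In the midbrain, 4 of the 8 members were lower in MPTP-SU than in MPTP-Veh: Meg3, Mirg, Miat and Neat1. A gene was called when its adjusted p was below 0.05 and its change above 1.5-fold, and 13.5% of the 16629 genes tested were called in this comparison, 9.1% downward. The median log2 fold change of all genes was near 0, at 0.000688. Since whole tissue was sequenced, fewer cells of a type and less RNA per cell cannot be told apart.

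Meg3 was at 4017, 3738, 3655 and 8919.5 CPM in MPTP-Veh replicates 1 to 4, and at 2612, 2543, 2195 and 3020.2 CPM in MPTP-SU. Every MPTP-SU library was below every MPTP-Veh library. The means were 5082 ± 2563 CPM (SD, n = 4) and 2592 ± 339 CPM (SD, n = 4), and Meg3 fell by 0.97 on the log2 scale (SE 0.21, adjusted p = 0.0101).

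Mirg, from the same imprinted region, was at 24.8, 23.6, 24.6 and 46.9 CPM in MPTP-Veh and at 16.0, 15.0, 14.4 and 19.4 CPM in MPTP-SU. Again the groups did not overlap. Mirg fell by 0.88 on the log2 scale (SE 0.19, adjusted p = 0.00927).

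Miat was at 176, 149.6, 171 and 490.4 CPM in MPTP-Veh and at 121, 115, 111 and 123 CPM in MPTP-SU. The groups did not overlap, and the 3 lower MPTP-Veh libraries lay close together above the MPTP-SU range. Miat fell by 1.07 on the log2 scale (SE 0.26, adjusted p = 0.0149).

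Neat1 was at 182, 187, 154 and 382 CPM in MPTP-Veh and at 127, 109, 147 and 171 CPM in MPTP-SU. Here the groups overlapped in CPM, since MPTP-Veh replicate 3 was below MPTP-SU replicate 4. As shares of library counts they did not overlap, at 0.0160% to 0.0340% in MPTP-Veh and 0.0101% to 0.0158% in MPTP-SU (exact permutation p = 0.0286). Neat1 fell by 0.71 on the log2 scale (SE 0.21, adjusted p = 0.0285).

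The 3 members whose groups did not overlap in CPM each had an exact two-sided permutation p of 0.0286, the smallest that 4 against 4 libraries can give, and 21.9% of all genes had groups without overlap in this comparison. The other 4 members did not pass the test. Rian, the third RNA of the imprinted region, was at 0.29 on the log2 scale (SE 0.13, adjusted p = 0.104), opposite in sign to Meg3 and Mirg. Malat1 was at -0.26 (SE 0.18, adjusted p = 0.271) and Snhg11 at -0.16 (SE 0.12, adjusted p = 0.325). Gm26917 had the highest log2 fold change of the members, 1.10, but its SE of 0.84 left it uncalled (adjusted p = 0.333).

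Without MPTP-Veh replicate 4 only Mirg was still called, with a log2 fold change of -0.587 (adjusted p = 0.0044), while 3.4% of genes were called, 2.09% downward. This value was only just past the 1.5-fold limit. Meg3 then had a log2 fold change of -0.55 (adjusted p = 0.000774) and Miat one of -0.50 (adjusted p = 0.00258), both past the p threshold but under 1.5-fold. The remaining 3 MPTP-Veh libraries still lay above all MPTP-SU libraries for Meg3, Mirg and Miat. Neat1 was at -0.33 (adjusted p = 0.0692), and it also lost its call without MPTP-SU replicate 1, 2 or 3 (adjusted p = 0.0689, 0.0906 and 0.0544). With the 8 libraries of these groups fitted alone, none of the 4 was called, with adjusted p of 0.223 to 0.234.

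**Figure D3:**
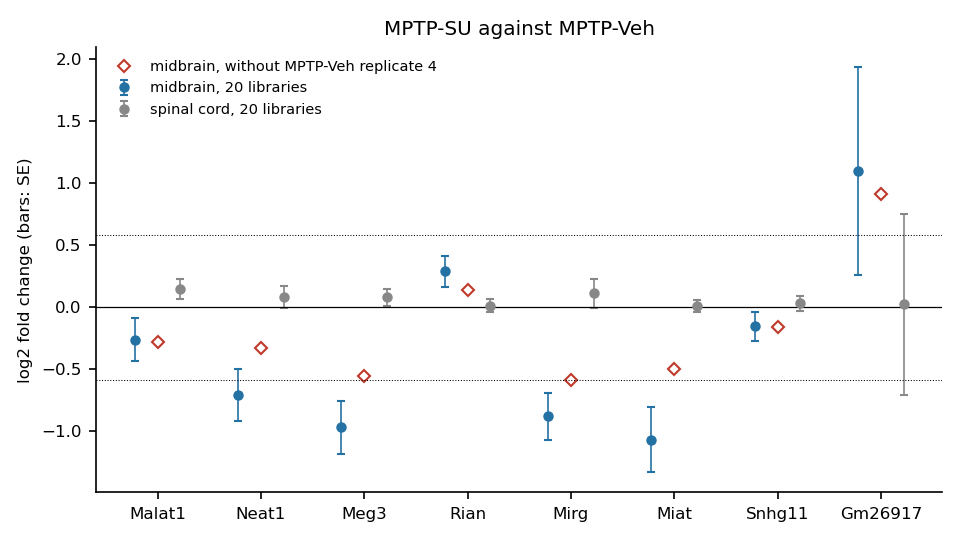
Log2 fold change of MPTP-SU against MPTP-Veh for each member, in the midbrain (blue, bars of 1 SE), in the midbrain without MPTP-Veh replicate 4 (open diamonds) and in the spinal cord (grey, bars of 1 SE), with dotted lines at 1.5-fold. Meg3 moves from -0.97 to -0.55 and Miat from -1.07 to -0.50 without that library, and in the spinal cord no member was called.

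MPTP-Veh against Con addresses what MPTP did on its own, and no member was called in the midbrain, where 0.018% of all genes were called by edgeR. At an unadjusted p below 0.05, 5 members were higher in MPTP-Veh, as were 15.6% of all genes. Meg3 was at 3115, 2749, 3226 and 3052 CPM in Con, all below the 4 MPTP-Veh libraries, and it was 0.74 higher on the log2 scale (SE 0.21, adjusted p = 0.130), or 0.33 without MPTP-Veh replicate 4 (adjusted p = 0.157). It was the one member whose groups did not overlap, and 12.4% of all genes had groups without overlap.

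The other 4 of these members overlapped between the groups. The log2 fold changes were 0.56 for Malat1 (SE 0.18, adjusted p = 0.130), 0.57 for Neat1 (SE 0.21, adjusted p = 0.140), 0.55 for Miat (SE 0.26, adjusted p = 0.205) and 2.06 for Gm26917 (SE 0.86, adjusted p = 0.169). Without MPTP-Veh replicate 4 the values were -0.024 for Miat, 0.19 for Neat1, 0.58 for Malat1 and 2.25 for Gm26917. DESeq2 called 1 member, Meg3, beside 2.68% of all genes, and without MPTP-Veh replicate 3 edgeR called 3 members, Malat1, Neat1 and Meg3, beside 6.47%. MPTP-Veh against Con and MPTP-SU against MPTP-Veh share the 4 MPTP-Veh libraries, so their values are not independent.

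Against Con, MPTP-SU midbrains had 0 members called by edgeR, beside 0.764% of all genes. At an unadjusted p below 0.05, 16.1% of all genes passed. Gm26917 had the widest difference, 3.16 on the log2 scale (SE 0.90, adjusted p = 0.0841), and all 4 MPTP-SU libraries were above all 4 Con libraries. DESeq2, limma-voom, the fit with a replicate block and the fit of the 8 libraries alone did call it, with adjusted p of 0.0346, 0.0494, 0.0355 and 0.00433, beside 2.54%, 0.896%, 0.878% and 4.5% of all genes.

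Miat was also without overlap between these groups, at 181, 174, 163 and 157 CPM in Con and at most 123 CPM in MPTP-SU, and the log2 fold change was -0.52 (SE 0.26, adjusted p = 0.335). Groups without overlap were found for 19.6% of all genes here. Mirg was at 26.4, 18.9, 24.3 and 23.0 CPM in Con, which overlapped MPTP-SU, and the log2 fold change was -0.51 (SE 0.19, adjusted p = 0.175). Meg3 was at -0.23 against Con (SE 0.21, adjusted p = 0.658), with overlapping groups.

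The antagonist groups address whether CB1 or PPARγ was needed for the effect of SUEHP. In the midbrain no member was called in MPTP-SU+S or MPTP-SU+T against MPTP-SU, and 0% of genes were called. At an unadjusted p below 0.05, 1.65% and 1.7% of genes passed, and no other tool called a member. The 7 members other than Gm26917 had log2 fold changes between -0.11 and 0.13 in the 2 comparisons. Gm26917 was at -1.30 (SE 0.84) and -1.73 (SE 0.85), with 3 of the 4 libraries of each antagonist group below all MPTP-SU libraries.

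When the 5 midbrain groups were ordered by mean for each member, most neighbours in the order overlapped. Meg3 in MPTP-Veh did not overlap the next group, Con, and Miat in Con did not overlap the next, MPTP-SU+T at 129 CPM. Rian was highest in MPTP-SU, at 604 ± 50.3 CPM (SD, n = 4), and lowest in MPTP-Veh, at 495 ± 109 CPM (SD, n = 4), where replicate 4 was at 335 CPM and the others at 521 to 582 CPM. Malat1 was highest in MPTP-Veh, at 2445 ± 506 CPM (SD, n = 4), and lowest in Con, at 1662 ± 304 CPM (SD, n = 4). Snhg11 stayed between 1602 and 2395 CPM in all 20 libraries.

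The 3 RNAs of the Dlk1-Dio3 region did not move together. The ratio of Meg3 to Rian within a library was 5.29 to 5.53 in Con midbrains, and 7.44, 7.17, 6.28 and 26.6 in MPTP-Veh replicates 1 to 4. In MPTP-SU it was 3.84 to 5.35, below every MPTP-Veh library, with or without replicate 4. Both MPTP-Veh against Con and MPTP-SU against MPTP-Veh gave an exact permutation p of 0.0286, the smallest possible. The ratio of Mirg to Rian was 0.0422 to 0.140 in MPTP-Veh and 0.0227 to 0.0344 in MPTP-SU, again without overlap. The ratio of Meg3 to Mirg overlapped between MPTP-SU and MPTP-Veh, with an exact permutation p of 0.771 and means of 160.1 and 164.9. It was 132 in Con, without overlap with MPTP-Veh or MPTP-SU (exact permutation p of 0.0286 for each). The ratio of Mirg to Rian in MPTP-SU also lay below Con (p = 0.0286 by the same exact test), while MPTP-Veh overlapped Con. These ratios were chosen with the levels above in view.

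Of the 10 tested protein-coding neighbours of the region, Begain, which encodes a guanylate kinase-associated protein of synapses, was the 1 gene called in MPTP-SU against MPTP-Veh, with a log2 fold change of -1.23 (adjusted p = 0.0104). Yy1, a transcription factor, passed the p threshold at 0.49 (adjusted p = 0.00846) but was under 1.5-fold. Dio3, the deiodinase that inactivates thyroid hormone, was at -1.75, Rtl1 at -0.68, Wdr25 at -0.43, Slc25a29 at -0.24, Dlk1 at -0.20 and Slc25a47 at -0.077. Eml1 was at 0.49 and Ppp2r5c at 0.24, and the median of the 10 was -0.22, or 0.115 without MPTP-Veh replicate 4, where 1 of them was called lower. Of all genes, 13.5% were called with all libraries and 3.4% without that library. Against Con, Dio3 was called lower in MPTP-SU, with a log2 fold change of -3.89 (adjusted p = 0.0485), beside 0.764% of all genes called.

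Proteins of the bodies that hold Neat1 and Malat1 were examined from lists. Of 18 paraspeckle proteins, 1 rose and 3 fell in MPTP-SU against MPTP-Veh in the midbrain, where 13.5% of all genes were called, 9.1% downward. Hnrnph3 was at -0.87 (adjusted p = 0.00138) and Hnrnpm at -1.36 (adjusted p = 0.00566), both RNA-binding proteins of the hnRNP family, and Cpsf6, a cleavage factor subunit, was at 0.68. Of 21 nuclear speckle proteins, 0 rose and 5 fell, among them the splicing-associated Pnn at -0.73 (adjusted p = 0.00161) and Srsf4, an SR splicing factor, at -0.65 (adjusted p = 0.00168). The median log2 fold change was -0.15 over the paraspeckle list and -0.12 over the nuclear speckle list, and -0.12 and -0.089 without MPTP-Veh replicate 4. Without MPTP-Veh replicate 4, 2 fell in each list and 0 rose, beside 3.4% of all genes called, 2.09% downward.

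Among 37 other long noncoding RNAs, 1 rose and 6 fell in the same comparison, beside 13.5% of all genes called, 9.1% downward. Gas5 was at -0.70 (adjusted p = 0.00625) and Snhg12 at -0.73 (adjusted p = 0.00648), both small nucleolar RNA hosts, while Tug1 was the one that rose, at 0.65, and the list's median was 0.17, or 0.029 without MPTP-Veh replicate 4. Without MPTP-Veh replicate 4, 2 fell and 0 rose, beside 3.4% of all genes called, 2.09% downward. Of 6 RNAs derived from or overlapping ribosomal and other structural RNA, none was called. Their log2 fold changes were 2.40 for AY036118, 2.03 for Rmrp, the RNA of RNase MRP, 1.26 for Rn7sk, 1.18 for Lars2, 0.93 for Gm15564 and 0.92 for Rpph1, all of the sign of Gm26917, with a median of 1.22.

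Some cell type markers were called in the same comparison, in which 13.5% of all genes were called, 9.1% downward. Of 10 markers each, 3 neuron, 4 astrocyte, 4 microglia and 0 blood vessel genes fell in MPTP-SU, and none rose. Rbfox3 and Syp fell for neurons (log2 fold changes -0.92 and -1.36), Sox9 and S100b for astrocytes (-0.64 and -1.24) and Aif1 and C1qa for microglia (-1.35 and -1.62). The medians were -0.42 for neurons, -0.0081 for astrocytes, -0.42 for microglia and 0.04 for blood vessels, and without MPTP-Veh replicate 4 they were -0.30, -0.095, -0.075 and -0.051. Other markers of the same lists had values above 0 without passing the test, such as Syt1 (0.75) and Map2 (0.48) for neurons, Aqp4 (0.84), Slc1a2 (0.55) and Slc1a3 (0.49) for astrocytes, and P2ry12 (0.76) for microglia. Of 10 midbrain identity genes, 2 fell, the homeobox genes En1 and En2 (-1.75 and -0.89). Of 13 mitochondrially encoded genes, ND6 fell (-1.65), and of 4 haemoglobin genes Hba-a1 and Hba-a2 fell (-2.17 and -1.96) and Hbb-bt rose (0.66). Without MPTP-Veh replicate 4, 1 midbrain identity gene and 1 mitochondrial gene fell and none of the others was called. In that fit 3.4% of all genes were called, 2.09% downward. Calls of the 10 oligodendrocyte markers with all libraries are not given here. Without MPTP-Veh replicate 4 none of them was called, and their median was 0.0084. The part of these shifts in the values of Meg3, Mirg, Miat and Neat1 was not tested.

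The midbrain changes also moved with base composition. Across 15252 genes with a transcript, Spearman's rho between GC content and the log2 fold change of MPTP-SU against MPTP-Veh was -0.514, and -0.295 without MPTP-Veh replicate 4. The median log2 fold change was 0.40 in the decile of genes with the lowest GC (31.0% to 41.3%) and -0.50 in the decile with the highest (58.0% to 74.4%). Over the 7 members other than Gm26917 rho was -0.929, and -0.857 without that library. Gm26917 was left out of this value and went the other way, with the highest GC of the members (69.1%) and a log2 fold change of 1.10. The rho therefore does not describe all 8 members, and it includes the 4 members called on these same fold changes.

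Against genes of like GC, the 7 members other than Gm26917 lay below the median of their decile when all libraries were used. Gm26917 lay above it. The 4 called members had been called on these same fold changes. Meg3, at -0.97, lay below a median of 0.05 in its decile, where 2.82% of genes were lower. Neat1, at -0.71 against 0.12, had 6.03% of its decile below it, Miat, at -1.07 against -0.24, had 6.23%, and Mirg, at -0.88 against -0.14, had 8.26%. Malat1, at -0.26 against 0.29, had 10.6% below it, Snhg11, at -0.16 against 0.21, had 18.95%, and Rian, at 0.29 against 0.40, had 38.1%. Gm26917, at 1.10 against -0.50, was above 99.1% of its decile. The part of GC content in these values was not tested.

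**Figure D4:**
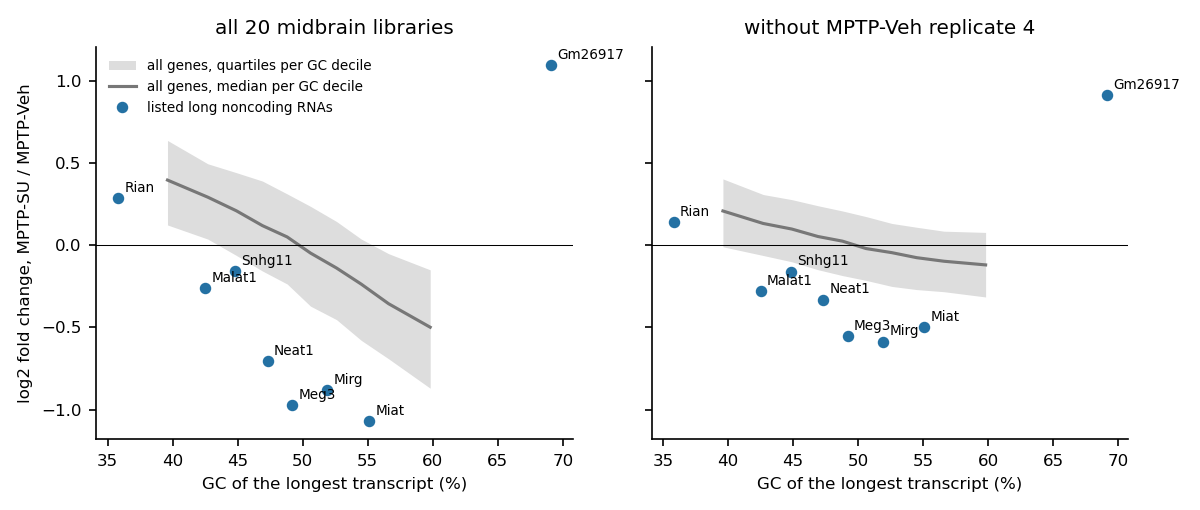
Log2 fold change of MPTP-SU against MPTP-Veh in the midbrain against GC content of the longest transcript (percent), with all libraries (left) and without MPTP-Veh replicate 4 (right), where the line and band are the median and quartiles of all genes in each decile of GC and the points are the 8 members. On the left the line falls from 0.40 to -0.50. The 7 members other than Gm26917 lie below the median of their decile, and Gm26917 lies far above it.

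In the spinal cord no member was called in any of the 5 comparisons, in which 0% to 0.024% of all genes were called. MPTP-Veh against Con had 5 members at an unadjusted p below 0.05, all lower in MPTP-Veh, beside 6.68% of all genes. Malat1 was at 3436, 3327, 3038 and 3378 CPM in Con and at 2749, 2736, 2904 and 2874 CPM in MPTP-Veh. These groups did not overlap, as for 4.73% of all genes, and the log2 fold change was -0.23 (SE 0.08, adjusted p = 0.272). Mirg was at -0.30, Neat1 at -0.21, Meg3 at -0.18 and Gm26917 at -1.87 (SE 0.76, adjusted p = 0.313).

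MPTP-SU against MPTP-Veh in the spinal cord had 0 members at an unadjusted p below 0.05, beside 3.81% of all genes. Malat1 was at 3326, 3121, 3055 and 2950.4 CPM in MPTP-SU, all above MPTP-Veh, with a log2 fold change of 0.14, and 3.27% of all genes had groups without overlap. MPTP-SU against Con had 1 member at an unadjusted p below 0.05, Gm26917 at -1.84, beside 9.17% of all genes, and no member was without overlap.

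Under the antagonists in the spinal cord, 1 member (Miat, MPTP-SU+S) and 3 members (Rian, Miat and Gm26917, MPTP-SU+T) had an unadjusted p below 0.05 against MPTP-SU, beside 5.49% and 12.1% of all genes. Miat was at 201, 202, 194 and 212 CPM in MPTP-SU, at 191, 183, 189 and 187 CPM in MPTP-SU+S, and at 224, 219, 235 and 226 CPM in MPTP-SU+T. None of these 3 groups overlapped another in CPM. As shares of library counts, MPTP-SU overlapped both antagonist groups, with an exact permutation p of 0.0571 for each. The log2 fold change was -0.11 for MPTP-SU+S, where 4.19% of genes had groups without overlap, and 0.16 for MPTP-SU+T (adjusted p = 0.222), where 8.04% had. Rian was at 427, 447, 439 and 414 CPM in MPTP-SU and at 404, 408, 379 and 400.0 CPM in MPTP-SU+T. These groups too overlapped as shares (exact permutation p = 0.0571) but not in CPM, and the log2 fold change was -0.12 (adjusted p = 0.373). Gm26917 in MPTP-SU+T was at 1.89 (SE 0.76, adjusted p = 0.319), and at -0.40 without replicate 1.

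**Figure D5:**
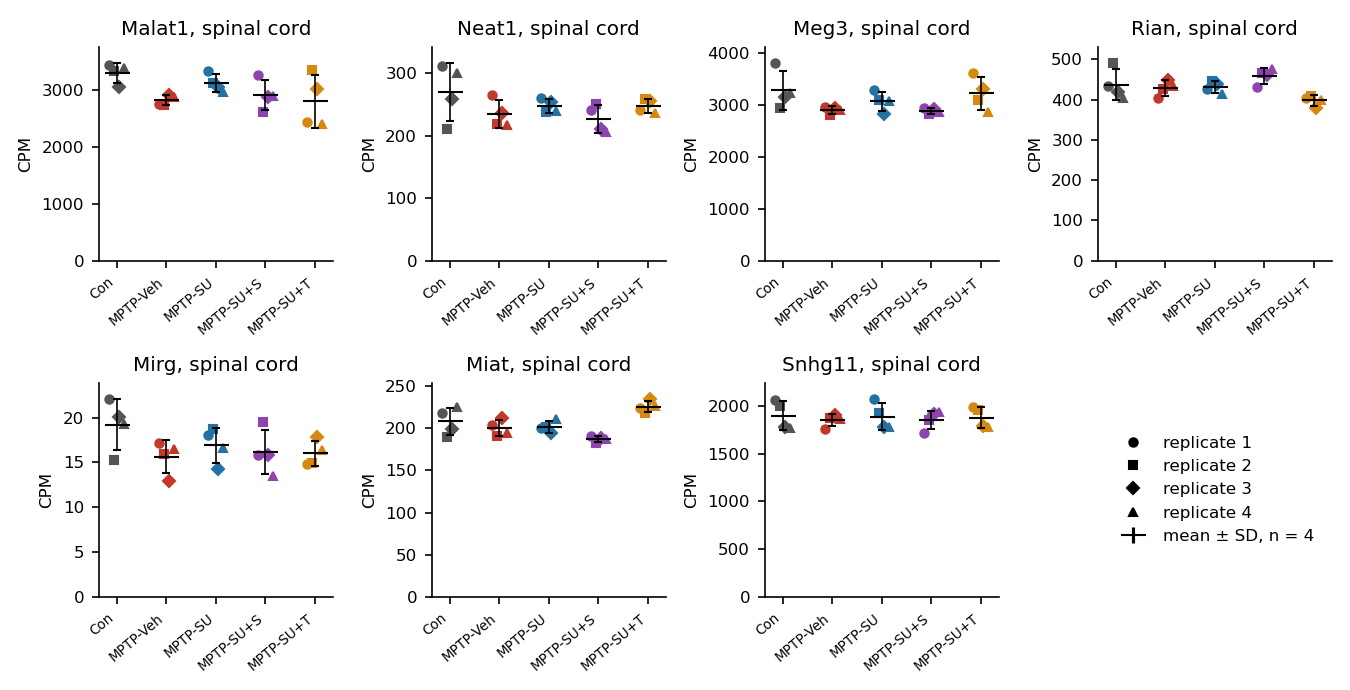
Level of the 7 members other than Gm26917 in the 20 spinal cord libraries (CPM, linear axis from 0), by group, with 1 point per library, a marker shape per replicate number and bars for the mean ± SD (n = 4). Miat lies at 183 to 191 CPM in MPTP-SU+S and at 219 to 235 CPM in MPTP-SU+T, and Malat1 lies lower in all 4 MPTP-Veh libraries than in all 4 Con libraries.

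In control animals, Malat1 and Neat1 were higher in the spinal cord than in the midbrain. The 4 Con libraries of each tissue were compared over 15987 genes, of which 17.4% were called, 9.68% upward in the spinal cord. On CPM scaled over these 8 libraries together, Malat1 was at 3107 to 3455 in the spinal cord and at 1361 to 2068 in the midbrain, which is 0.98 on the log2 scale (SE 0.11, adjusted p = 3.06e-05). Neat1 was at 215 to 313 and at 146 to 179, which is 0.82 on the log2 scale (SE 0.11, adjusted p = 0.000123). The groups did not overlap for Malat1, Neat1, Miat and Rian, as for 38.9% of all genes.

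Miat was higher by 0.30 (SE 0.07, adjusted p = 0.00489) and Rian lower, at -0.37 (SE 0.07, adjusted p = 0.00206), both past the p threshold but under 1.5-fold. Gm26917 was at 1.85 (SE 0.69, adjusted p = 0.0507), but its groups overlapped. Its scaled CPM spanned 6862 to 90852 for spinal cord controls, against 5521 to 19103 for midbrain controls. The high spinal cord values were those of replicates 1 and 2, and results without them are not given here. Gm26917 was called without midbrain Con replicate 4, the highest there, or without spinal cord Con replicate 3 or 4, both low. The share of all genes called in those fits is not given. Mirg was at -0.27 (adjusted p = 0.0982), Meg3 at 0.10 and Snhg11 at -0.09. None of the 18 paraspeckle and 21 nuclear speckle proteins was called between the tissues. Of the other long noncoding RNAs, 5 of 37 were higher and 3 lower in the spinal cord, beside 17.4% of all genes called, 9.68% upward. Of the neighbours of the Dlk1-Dio3 region, Eml1 was higher, at 0.87, and Dlk1, a transmembrane ligand related to the Notch ligands, was lower, at -0.80.

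Whether the response differed between the tissues was tested in a fit over both. For MPTP-SU against MPTP-Veh, the log2 fold change in the midbrain minus that in the spinal cord was -1.04 for Meg3 (SE 0.22, adjusted p = 0.00346), -0.99 for Mirg (SE 0.23, adjusted p = 0.00555), -1.07 for Miat (SE 0.27, adjusted p = 0.00901) and -0.78 for Neat1 (SE 0.23, adjusted p = 0.0222). All 4 passed, beside 12.1% of 17426 genes. Without midbrain MPTP-Veh replicate 4, Meg3 and Mirg were the 2 members called, beside 3.9% of all genes, Miat was at -0.49 (adjusted p = 0.00232) and Neat1 at -0.39 (adjusted p = 0.0956). For MPTP-Veh against Con, the difference was 0.77 for Malat1 (SE 0.20, adjusted p = 0.0436) and 0.90 for Meg3 (SE 0.22, adjusted p = 0.0422), and 2.45% of genes were called. Without midbrain MPTP-Veh replicate 4, Malat1 was still called, at 0.80, beside 0.55% of all genes, and Meg3 was at 0.50 (adjusted p = 0.0329), under 1.5-fold. The number of members called there was 0 without midbrain Con replicate 1, 2 or 4, spinal cord Con replicate 1 or 4, or any of the 4 spinal cord MPTP-Veh libraries, and 6 without midbrain MPTP-Veh replicate 2 or 3, where 12.7% and 15.4% of all genes were called.

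Genes whose pattern was most like that of Meg3 over the 20 midbrain libraries were Bex1, Cfdp1 and Fkbp2, with Spearman's rho of 0.953, 0.952 and 0.949, and in the spinal cord Eif3b, Zc3h13 and Smarca2, with 0.89, 0.878 and 0.878. For Malat1 they were Gm52229, Zfp329 and Zbtb25 in the midbrain (0.817, 0.815 and 0.811) and Taf15, Mest and Akap9 in the spinal cord (0.777, 0.774 and 0.767). Taf15 is itself on the list of paraspeckle proteins. Among the members, the highest rho in the midbrain was between Mirg and Miat, at 0.893, followed by Meg3 and Mirg, at 0.872, and Meg3 and Miat, at 0.782. Neat1 and Rian had a rho of -0.707 and Malat1 and Gm26917 one of 0.614. In the spinal cord Rian and Miat had a rho of -0.794. The libraries of one tissue share their groups and sequencing, so these values describe likeness and carry no p.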

How the data were processed

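Transcriptomes of 20 midbrain and 20 spinal cord samples were sequenced with a poly(A)-selecting CORALL kit. The authors used fastp for trimming, STAR for alignment and Salmon for quantification, with GRCm39 as the build in their notes, and versions and the use of strand are not given in the sources used here. They deposited estimated counts per gene symbol as whole numbers, so reads of overlapping, antisense or near-identical genes, Gm26917 above all, may be shared. Values of 1000000 or more, all of Gm26917, were written to 6 significant digits.

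The 8 members and all gene lists were chosen with earlier results of these data known. Groups followed the sample labels. The counts were fitted in edgeR 4.0.16 (R 4.3.3) with filterByExpr, TMM scaling and the quasi-likelihood test, in 1 fit per tissue over its 20 libraries, in 1 fit of the 8 Con libraries for the tissue comparison, and in 1 fit over both tissues for differences of response. P-values were adjusted by Benjamini-Hochberg over all genes tested (16629 in the midbrain, 16682 in the spinal cord). Reported CPM values used TMM library sizes, with a prior count of 2 on the log scale. Exact two-sided permutation tests compared single values. Overlap of groups was judged in CPM unless stated. As shares of library counts it differed for some members. Examples are Neat1 in midbrain MPTP-SU against MPTP-Veh, and Meg3 and Mirg in midbrain MPTP-SU against Con, which then did not overlap. Genes were named by rule: all 8 members in every comparison, the 3 genes with the highest Spearman correlation among those of mean CPM at least 5 for Malat1, Meg3 and Gm26917, the 2 called genes of smallest p of each list, and every tested gene of the rRNA and Dlk1-Dio3 lists. Genes named beyond it (Cpsf6, Tug1, Taf15, Hbb-bt, Syt1, Map2, Aqp4, Slc1a2, Slc1a3, P2ry12, and Eml1 and Dlk1 between tissues) were chosen after their values were seen. Alternatives were DESeq2 1.42.0, limma-voom 3.58.1, other scalings and filters, a replicate block, and leaving out single libraries. The code was tested on simulated counts.

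Transcript sequences came from GENCODE M21 and promoters from RefSeq, both on GRCm38, so no coordinate of the counting genome was used. Replicate numbers were not taken as pairing. One marker gene's result and 1 transcript stretch are not reported here.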

Additional observations from a re-analysis of the deposited data

Results flagged for a closer look

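Of 80 sets of 4 libraries (8 members in 10 groups), 11 held a library far from the other 3 by Dixon's criterion, and chance flags about 1 set in 20. In midbrain MPTP-Veh, replicate 4 stood apart for Neat1 (382 CPM), Meg3 (8919.5 CPM), Mirg (46.9 CPM) and Miat (490.4 CPM). Gm26917 had a high library in midbrain MPTP-Veh (108203 CPM), midbrain MPTP-SU+S (81850.0 CPM), midbrain MPTP-SU+T (77672.5 CPM) and spinal cord MPTP-SU+T (120604 CPM), and all 4 were replicate 1. The remaining ones were Neat1 in midbrain Con replicate 4 (174 CPM), Miat in midbrain MPTP-SU+T replicate 3 (155 CPM) and Snhg11 in midbrain MPTP-SU+S replicate 1 (1602 CPM, below the other 3).

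The response differed between midbrain and spinal cord, by a test of the difference itself, in 6 cases. For MPTP-Veh against Con the differences on the log2 scale were 0.77 for Malat1 and 0.90 for Meg3, beside 2.45% of all genes called. For MPTP-SU against MPTP-Veh they were -0.78 for Neat1, -1.04 for Meg3, -0.99 for Mirg and -1.07 for Miat, beside 12.1% of all genes called. Without midbrain MPTP-Veh replicate 4 the calls of Neat1 and Miat and the Meg3 call for MPTP-Veh against Con were lost, and leaving out any 1 of 9 other libraries left no member called for MPTP-Veh against Con.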

How the results depend on the processing

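The number of members called was counted as changed in 25 of 231 alternatives and as the same in 206. Small changes, such as from 4 to 3 or from 2 to 3, were counted as the same. The number was therefore not identical in all of the 206. For midbrain MPTP-Veh against Con it was 1 with DESeq2 and 0 to 3 as single libraries were left out. For midbrain MPTP-SU against Con it was 1 with DESeq2, with limma-voom, with the replicate block and with the 8 libraries alone, Gm26917 each time. For midbrain MPTP-SU against MPTP-Veh it was 0 with the 8 libraries alone and 1 to 4 as single libraries were left out, while DESeq2 and limma-voom called all 4. With library quality weights in limma-voom, 1 member was called for the tissue difference of MPTP-Veh against Con and 2 for that of MPTP-SU against MPTP-Veh. Leaving out single libraries gave 0 to 6 and 2 to 4 there, and 2 to 3 for the control tissues. Most counts of members in this section stand without the share of all genes called in the same setting. They do not show whether the members stood out from other genes. No alternative called a member within the spinal cord. The cause was not tested.

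Of 718 alternatives for single fold changes, 658 kept direction and call, 36 lost the call, 22 gained one and 2 reversed: Miat in midbrain MPTP-Veh against Con ranged from -0.024 (without MPTP-Veh replicate 4) to 0.73 (without MPTP-Veh replicate 2), and Gm26917 in spinal cord MPTP-SU+T against MPTP-SU ranged from -0.40 (without MPTP-SU+T replicate 1) to 2.23 (without MPTP-SU+T replicate 2).

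The replicate block gave 4 members for midbrain MPTP-SU against MPTP-Veh, 0 for MPTP-Veh against Con and 2 for the control tissues. Same-numbered midbrain libraries deviated together in part, as 10 of 20 correlated best with their own number, against 4 of 20 in the spinal cord. Between midbrain MPTP-SU and MPTP-Veh, the correlations of replicates 1 to 4 were 0.231, 0.179, -0.0708 and 0.261. Between MPTP-SU and Con they were 0.0455, -0.014, -0.0463 and 0.0107. The labels do not say what the numbers stand for, and they were not used as pairs. A factor shared by number was not tested beyond the replicate block.

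Over all genes, midbrain MPTP-SU against MPTP-Veh called 2237, 572 without MPTP-Veh replicate 4 and 0 with the 8 libraries alone. MPTP-Veh against Con called 3, and 446 with DESeq2. MPTP-SU against Con called 127, and 422 with DESeq2. Small changes of Gm26917 were not detectable where libraries of a group differed several-fold, as in every midbrain group and in spinal cord Con and MPTP-SU+T.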
